A study of Homo sapiens with 8 samples.

Results

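Expression and isoform usage of 8 enzymes of cholesterol synthesis, HMGCS1, MVD, IDI1, FDPS, FDFT1, SQLE, LSS and DHCR7, were examined in MOLM-13 cells, a human acute myeloid leukemia line, after knockdown (KD) of the splicing factor PTBP1. The genes were chosen by name, with earlier results of these data known. Every counted transcript that the GENCODE version 44 annotation gives to 1 of them was included. The 8 genes were among the 16474 genes with at least 1 count, and 42 of their transcripts were counted. The enzymes hold successive places in a single pathway. HMGCS1 condenses acetyl units to HMG-CoA, MVD makes isopentenyl diphosphate from mevalonate products, IDI1 isomerizes it, and FDPS joins these units to farnesyl diphosphate. At this point the pathway branches towards sterols on one side and towards prenylated proteins, dolichol and ubiquinone on the other. FDFT1 (squalene synthase) commits farnesyl diphosphate to sterols, SQLE oxidizes squalene, LSS closes the rings to lanosterol, and DHCR7 carries out the last reduction to cholesterol. Most genes of the pathway are known targets of the SREBP transcription factors, which cells hold back in the endoplasmic reticulum through INSIG proteins when sterols are plentiful.

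Cells carried either a doxycycline-inducible shRNA against PTBP1 (shPTBP1, genotype PTBP1 KD) or a scrambled control shRNA (shSCR, genotype WT), and both groups received doxycycline for 9 days. mCherry marked cells holding either lentiviral vector at all times, whereas the shRNA and its reporter, a shortened LNGFR, were switched on by the drug. Each group had 4 biological replicates, and 1 shRNA was used per group, so that loss of PTBP1 cannot be told apart from other effects of that shRNA. Total RNA was converted to cDNA, amplified and sequenced on a nanopore instrument. The authors filtered the reads on mapping quality and derived counts per transcript with StringTie.

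The libraries held 1528449 to 1613342 counts, and 12322 to 12589 genes were detected in each. PTBP1 was counted 10, 15, 13 and 23 times in shPTBP1 replicates 1 to 4 and 65, 90, 64 and 78 times in shSCR. This is a log2 fold change of -2.26 (SE 0.22, edgeR quasi-likelihood test, Benjamini-Hochberg adjusted p = 7.18e-05). All 12 myeloid leukemia markers examined had counts, but SPI1 and CD14 had 1 count each over all libraries. The summed level of the 12 was 686 to 786 counts per 1000000 (CPM) in shPTBP1 and 611 to 672 CPM in shSCR libraries. LYZ was the largest part of this sum, with a mean of 345 CPM in shPTBP1 and 274 CPM in shSCR. Of the 8 myeloid markers tested, 5 had a positive and 3 a negative log2 fold change. CSF1R was called lower (log2 fold change -0.97, adjusted p = 0.0375 by edgeR) and 0 were called higher. Among the 5 markers each of other lineages, summed levels reached 2.00 CPM for B cells, 0.667 CPM for erythroid cells, 19.0 CPM for epithelial cells and fibroblasts, and 27.3 CPM for T and NK cells. The T and NK signal came from NKG7 alone, with the other 4 at 0. The part of these marker levels in the results below was not tested. In bulk RNA, fewer expressing cells and less RNA per cell cannot be told apart.

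Promoters of sterol genes are known for CCAAT boxes, bound by NF-Y, near SREBP sites. The promoter sequences below show the CCAAT letters only, without the sterol element core, and neither motif was used to choose the genes. Of the 8 enzymes, 6 had a RefSeq promoter entry (GRCh38.p14), and the 250 bases before the annotated start nearest the 5′ end of the most counted isoform were searched. The start used lay 100 bases from that 5′ end for HMGCS1, 50 bases for LSS and 23 bases for FDPS, and at the same base for MVD, IDI1 and DHCR7. These distances are given without direction. The windows of HMGCS1, MVD, FDPS, LSS and DHCR7 lie partly or wholly inside the annotated gene span, so a match there can be in transcribed sequence. The copies printed below for HMGCS1, FDPS and DHCR7 lie inside that span, for HMGCS1 at its 5′ edge. CCAAT was found on either strand in 6 of 6 of these promoters, against 32.0% of all 35116 promoters. FDPS and MVD held 3 copies, HMGCS1, IDI1 and DHCR7 held 2, and LSS held 1. The letters GGGCGG, a GC box, were present on either strand in 6 of 6 and in 42.6% of all promoters. The sterol element core TCACNCCAC was not found in these windows of the 6, and 0.883% of all promoters held it. The motifs were searched separately and could overlap. For each enzyme the 45 bases around the copy nearest the start are given 5′ to 3′ on the strand of the gene, with the match in capitals (CCAAT, or ATTGG where it lies on the other strand), and INSIG1 is added because it was the sterol-sensing gene that fell.
HMGCS1, chr5:43313488-43313532, minus strand: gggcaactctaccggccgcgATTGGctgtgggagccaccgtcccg
MVD, chr16:88663152-88663196, minus strand: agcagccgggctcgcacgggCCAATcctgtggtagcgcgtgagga
IDI1, chr10:1049212-1049256, minus strand: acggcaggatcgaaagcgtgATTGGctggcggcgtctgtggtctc
FDPS, chr1:155308795-155308839, plus strand: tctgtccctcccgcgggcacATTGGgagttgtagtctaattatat
LSS, chr21:46228900-46228944, minus strand: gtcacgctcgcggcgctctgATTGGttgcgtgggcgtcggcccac
DHCR7, chr11:71448417-71448461, minus strand: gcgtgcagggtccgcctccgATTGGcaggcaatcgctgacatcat
INSIG1, chr7:155297688-155297732, plus strand: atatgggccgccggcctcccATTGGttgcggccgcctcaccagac
A match describes the letters present and is not evidence of binding.

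At FDPS, the main isoforms differed by an exon at the start of the coding region, which is shown because the share of transcripts holding it is described below. This exon of FDPS-202 spans 177 bases at chr1:155309789-155309965 (GRCh38, plus strand), and FDPS-206, the most counted isoform, lacks it. Its coding part, 176 bases at chr1:155309790-155309965, reads as follows, with the start codon in capitals.
FDPS-202 coding part of the exon: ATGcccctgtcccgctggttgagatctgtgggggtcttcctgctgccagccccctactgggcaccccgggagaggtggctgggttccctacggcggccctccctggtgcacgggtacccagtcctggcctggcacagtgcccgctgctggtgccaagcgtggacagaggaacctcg
FDPS-202 has 1257 coding bases in 11 exons, and FDPS-206 has 1059 in 10.

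Of the 8 enzymes, 6 passed the filter on low counts, and 0 were called lower or higher after PTBP1 KD at an adjusted p under 0.05 by edgeR, DESeq2 or limma-voom. DESeq2 gave no adjusted p for MVD and DHCR7. Among the 7597 genes tested, 3.19% were called lower and 2.36% higher. The log2 fold changes of the 6 enzymes ran from -0.45 for FDFT1 to 0.15 for SQLE, with a median of -0.14, against a median of -0.00014 over all genes tested. FDFT1 was the only enzyme with an unadjusted p under 0.05, or with groups of libraries that did not overlap. Over all genes tested, 19.2% had such a p and 12.7% such groups, so that 1 of 6 is close to the background. IDI1 and LSS did not pass the filter, and their libraries held 10 counts or fewer each.

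Among the enzymes up to the branch point, no difference passed the test, and the groups overlapped for each. HMGCS1 (chr5:43287470-43313512, minus strand) was counted 145, 104, 134 and 121 times in shPTBP1 and 166, 137, 101 and 143 times in shSCR replicates 1 to 4. The lowest and the second lowest library belonged to different groups. Its normalized level was 81.5 ± 10.5 CPM in shPTBP1 and 87.1 ± 14.5 CPM in shSCR (SD, n = 4 each), a log2 fold change of -0.10 (95% CI -0.38 to 0.18, adjusted p = 0.749 by edgeR).

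MVD (chr16:88651935-88663161, minus strand) was counted 12, 9, 11 and 6 times in shPTBP1 and 11, 16, 11 and 6 times in shSCR. Replicate 4 was the lowest library in both groups. Its log2 fold change of -0.19 had a 95% CI from -0.97 to 0.58 (adjusted p = 0.835 by edgeR), and at this depth neither a fall nor a rise within that interval was detectable. IDI1 (chr10:1039152-1049119, minus strand) was counted 5, 6, 8 and 7 times in shPTBP1 and 4, 9, 10 and 9 times in shSCR. shSCR replicate 1 was the lowest of all libraries, while the other 3 shSCR libraries were the highest. The ratio of shPTBP1 to shSCR for IDI1 was 0.818 with an exact binomial 95% interval of 0.468 to 1.42, which covers counting error only.

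FDPS, located at chr1:155308748-155320666 (plus strand), had the most counts of the 8 genes, 1696 over all libraries. It was counted 191, 203, 223 and 214 times in shPTBP1 and 189, 226, 242 and 208 times in shSCR, and both the lowest and the highest library were shSCR. The level was 135 ± 10.7 CPM in shPTBP1 and 139 ± 19.0 CPM in shSCR (SD, n = 4 each), a log2 fold change of -0.04 (95% CI -0.26 to 0.18, adjusted p = 0.877 by edgeR). That interval corresponds to a level in shPTBP1 of 0.835 to 1.13 times that in shSCR. The 8 FDPS pseudogenes together held 1 count and the 3 IDI1 pseudogenes none. Only reads with a mapping quality above 50 were counted, so these counts cannot show how many reads matched both a gene and a pseudogene.

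Of the enzymes committed to sterols, FDFT1 was lower in all 4 shPTBP1 libraries, but did not pass the threshold over all genes. FDFT1 (chr8:11795573-11839395, plus strand) was counted 65, 68, 52 and 49 times in shPTBP1 and 82, 87, 80 and 74 times in shSCR, so that the highest shPTBP1 library lay below the lowest shSCR library. The level was 37.9 ± 6.21 CPM against 51.7 ± 3.46 CPM (SD, n = 4 each), a log2 fold change of -0.45 (SE 0.13, 95% CI -0.73 to -0.16), or 0.734 times the control level. The adjusted p was 0.0683 by edgeR (unadjusted p = 0.00448), and an exact permutation test over the 8 libraries gave p = 0.0286, the smallest value that 4 against 4 libraries allow. FDFT1 passed the threshold only when genes with a mean under 50 counts were left out (adjusted p = 0.0401), and over the other alternatives with all libraries the adjusted p reached 0.235 with DESeq2. When single libraries were left out, the log2 fold change of FDFT1 stayed between -0.54 and -0.36, with adjusted p from 0.0561 to 0.184.

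SQLE (chr8:124998497-125022283, plus strand) was counted 199, 147, 151 and 187 times in shPTBP1 and 154, 166, 147 and 156 times in shSCR. shPTBP1 replicates 1 and 4 were above every shSCR library, and replicates 2 and 3 were within the shSCR range of levels. The level was 111 ± 14.4 CPM in shPTBP1 and 99.6 ± 4.64 CPM in shSCR (SD, n = 4 each), a log2 fold change of 0.15 (95% CI -0.06 to 0.36, adjusted p = 0.441 by edgeR). Most of the difference between these libraries lay in a single isoform, SQLE-206, which was counted 36 and 26 times in shPTBP1 replicates 1 and 4 and 0 times in the other 6 libraries. The main isoform, SQLE-201, was counted 163, 147, 150 and 161 times in shPTBP1 replicates 1 to 4. Without the counts of SQLE-206, an alternative chosen after its values were seen, the log2 fold change of SQLE was 0.02 (adjusted p = 0.942 by edgeR).

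LSS (chr21:46188141-46228824, minus strand) was counted 4, 9, 5 and 2 times in shPTBP1 and 7, 4, 10 and 9 times in shSCR. Both groups held libraries with 4 and 9 counts. The ratio of shPTBP1 to shSCR for LSS was 0.676 with a counting interval of 0.364 to 1.23. DHCR7 (chr11:71428193-71452868, minus strand) was counted 10, 12, 17 and 15 times in shPTBP1 and 24, 15, 12 and 19 times in shSCR. The groups overlapped, and the highest library was shSCR replicate 1. The log2 fold change of DHCR7 was -0.35 (95% CI -0.95 to 0.26, adjusted p = 0.556 by edgeR). A lncRNA on the opposite strand, ENSG00000254682, overlaps DHCR7 and was counted 2 to 10 times per library. Whether counting used the strand is not given in the sources used here, so that reads of this pair may not be separated. Opposite-strand genes at HMGCS1, IDI1, FDPS, FDFT1 and LSS each had at most 2 counts per library.

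The 4 enzymes with a mean of at least 50 counts, HMGCS1, FDPS, FDFT1 and SQLE, showed little common variation over the 8 libraries. Pearson's r of their log2 CPM was between -0.67, for HMGCS1 with FDPS, and 0.08, for HMGCS1 with SQLE, with a median of -0.10 over the 6 pairs. These values are descriptions over 8 libraries that share depth and normalization. Counting error enters them too, so a low r does not show that these enzymes vary independently. The level of SQLE also includes SQLE-206, counted in shPTBP1 replicates 1 and 4 alone. The 5 other genes most like the mean of the 6 tested enzymes, among 3672 genes with a mean of at least 50 counts, were BRD3, P2RX4, HNRNPM, RMND5A and TRAFD1, with r from 0.931 to 0.938. These are the top of a ranking of 3672 values, each over 8 libraries, and are given as a description without a test. The mean of the enzymes gives each the same weight, so the counting error of MVD and DHCR7, with at most 24 counts per library, enters it. None of these 5 genes was called between the groups (adjusted p from 0.0572 to 0.336 by edgeR).

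The rest of the pathway was described with 48 further genes in 4 lists, of which 38 passed the filter. INSIG1, LIPA and FNTA were called lower and 0 genes higher by edgeR, that is 3 of 38 against 3.19% of all genes tested. The lists were chosen with earlier results of these data known, so the shares in this paragraph are descriptions and no test of the lists. At an unadjusted p under 0.05, 6 of the 38 were lower and 0 higher, against 10.1% and 9.1% of all genes tested. Beside the 3 called genes and TM7SF2 below, these were MBTPS1, a protease that cleaves SREBP (log2 fold change -0.40, adjusted p = 0.0747 by edgeR), and SOAT1, which esterifies cholesterol (-0.61, adjusted p = 0.149 by edgeR), 2 genes named after their values were seen. DESeq2 called 3 lower and limma-voom 2, and both called 0 higher. Without shPTBP1 replicate 2, or without shSCR replicate 4, edgeR called 0 of the 38 lower, and without shPTBP1 replicate 3 it called INSIG1 alone. Calls over all genes tested also fell, to 210, 219 and 184 in these 3 settings, from 242 lower and 179 higher with all libraries.

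**Figure D1:**
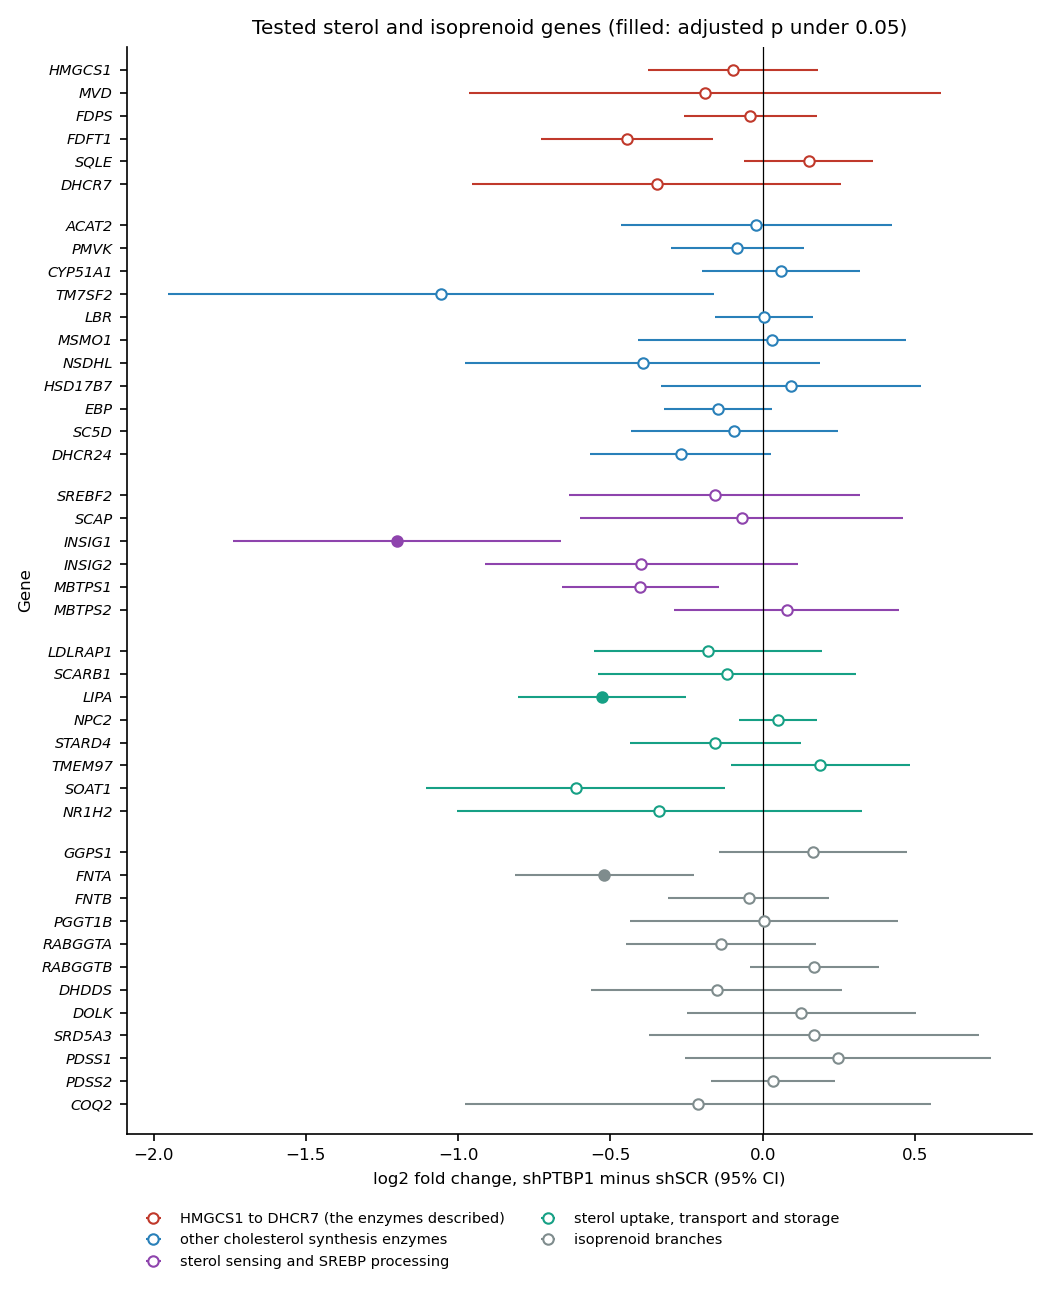
Log2 fold change, shPTBP1 minus shSCR (x axis), with its 95% confidence interval, for tested genes of the 5 lists (y axis, 1 gene per row, colored by list). Filled points are called by edgeR at an adjusted p under 0.05: INSIG1 at -1.20, LIPA at -0.53 and FNTA at -0.52. The 6 tested enzymes at the top, HMGCS1 to DHCR7, are all open points.

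Of the 13 other enzymes of cholesterol synthesis, 12 were tested and 0 were called, with a median log2 fold change of -0.05 and 1 unadjusted p under 0.05. The groups did not overlap for TM7SF2 and EBP, 2 genes named after their values were seen. Such groups were found for 12.7% of all genes tested, so that 2 of 12 is close to the background. TM7SF2, a sterol C14 reductase, had a log2 fold change of -1.06 (adjusted p = 0.180 by edgeR). EBP, a sterol isomerase, had one of -0.15 (adjusted p = 0.361 by edgeR). TM7SF2 was a low gene, with 24 counts in all shPTBP1 and 51 in all shSCR libraries.

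Among the 7 genes of sterol sensing and SREBP processing, 6 were tested, 1 was called lower and 0 higher. INSIG1, which retains SREBP in the endoplasmic reticulum and is itself a known SREBP target, fell after PTBP1 KD. It was counted 14, 20, 24 and 28 times in shPTBP1 and 39, 67, 37 and 58 times in shSCR, with no overlap. The level was 13.9 ± 3.90 CPM against 32.1 ± 9.29 CPM (SD, n = 4 each), a log2 fold change of -1.20 (SE 0.25, 95% CI -1.74 to -0.66, adjusted p = 0.0152 by edgeR). Left-out libraries moved the adjusted p of INSIG1 to 0.0506 without shPTBP1 replicate 2 and to 0.0526 without shSCR replicate 4, with log2 fold changes of -1.18 and -1.12. SREBF2, which encodes the SREBP of sterol synthesis, was counted 22 to 36 times in shPTBP1 and 21 to 41 times in shSCR, a log2 fold change of -0.16 (95% CI -0.64 to 0.32, adjusted p = 0.767 by edgeR). Both groups spanned nearly the same counts of SREBF2. The median log2 fold change of this list was -0.28.

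Sterol uptake, transport and storage had 15 genes, of which 8 were tested, 1 was called lower and 0 higher, with a median log2 fold change of -0.17. LIPA, the lysosomal acid lipase that frees cholesterol from esters, was counted 92, 89, 108 and 97 times in shPTBP1 and 139, 112, 164 and 148 times in shSCR. The groups were close, at 71.1 CPM in the highest shPTBP1 and 71.3 CPM in the lowest shSCR library. Its log2 fold change was -0.53 (SE 0.13, adjusted p = 0.0308 by edgeR), and without single libraries the adjusted p ran from 0.0126 to 0.0917, above the threshold in 6 of 8 cases (without any 1 of the shPTBP1 libraries, or shSCR replicate 3 or 4).

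Of the 13 genes on the isoprenoid branches, which draw on farnesyl diphosphate made by FDPS, 12 were tested, 1 was called lower and 0 higher, with a median log2 fold change of 0.02. FNTA, the alpha subunit shared by enzymes that attach farnesyl and geranylgeranyl groups to proteins, was counted 129, 111, 119 and 162 times in shPTBP1 and 173, 230, 149 and 205 times in shSCR. The highest shPTBP1 library, replicate 4, lay above the lowest shSCR library, replicate 3. The log2 fold change of FNTA was -0.52 (SE 0.14, adjusted p = 0.0428 by edgeR, 0.0572 by limma-voom), and it passed the threshold in 3 of 8 cases with a library left out (adjusted p from 0.0292 to 0.134). The call was lost without shPTBP1 replicate 1, 2 or 3 and without shSCR replicate 2 or 4.

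**Figure D2:**
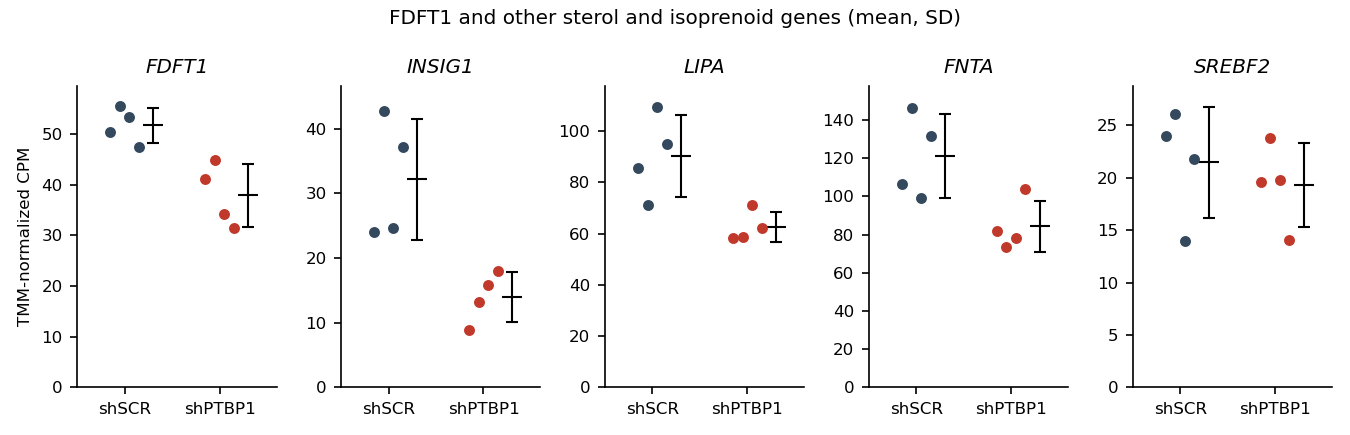
Level in TMM-normalized CPM (y axes, from 0) of FDFT1, the 3 called genes INSIG1, LIPA and FNTA, and SREBF2, in each of the 4 shSCR and 4 shPTBP1 libraries (x axis), with mean and SD beside the points. INSIG1 lies between 8.86 and 17.9 CPM in shPTBP1 and between 24.0 and 42.7 CPM in shSCR, while the groups of SREBF2 overlap.

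Isoform usage of the enzymes was examined next, because PTBP1 regulates splicing. The share of a gene's counts in each annotated isoform was compared between the groups. Each enzyme had a main isoform, with 72.6% (FDPS) to 95.2% (SQLE) of its counts, and 19 isoforms reached a mean share of 5% in a group. Of the main isoforms, 0 of 8 differed in share by an exact permutation test (two-sided, smallest unadjusted p = 0.143, smallest adjusted over the 8 p = 0.610). The smallest p that this permutation test allows with 4 against 4 libraries is 0.0286. A change in 1 main isoform alone could therefore not pass after adjustment over the 8. In the test across all transcripts (diffSpliceDGE of edgeR), 1.12% of the 5464 isoforms tested were called, for which the share had to move by at least 10 percentage points at an adjusted p under 0.05. The test needs at least 2 isoforms of a gene that pass the filter on low counts. Among the 8 enzymes only FDPS had them, and 0 of its isoforms were called. The main isoforms of HMGCS1, FDFT1 and SQLE had many counts but no second isoform that passed.

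For FDPS, the share of FDPS-206 was 72.2% ± 2.92 in shPTBP1 and 73.1% ± 2.41 in shSCR (SD, n = 4 each). FDPS-202 took 9.95%, 11.3%, 13.5% and 11.7% of FDPS counts in shPTBP1 and 8.47%, 5.75%, 7.85% and 10.6% in shSCR replicates 1 to 4. The difference of 3.44 percentage points did not pass (unadjusted p = 0.0519, adjusted p = 0.808 by diffSpliceDGE). FDPS-221 took 4.87% ± 1.31 in shPTBP1 and 6.24% ± 1.56 in shSCR. The isoforms with the exon printed above were summed after their values were seen, so that their joint share is given as a description without a test. They took 12.6%, 12.8%, 17.0% and 12.6% of FDPS counts in shPTBP1 and 10.6%, 8.41%, 10.7% and 12.5% in shSCR, and the groups did not overlap. These shares rest on 115 and 91 counts in all, and the nearest libraries, shPTBP1 replicate 1 with 24 of 191 counts and shSCR replicate 4 with 26 of 208, were nearly equal.

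For HMGCS1, the main isoform HMGCS1-202 held 94.9% ± 0.862 of the counts in shPTBP1 and 95.5% ± 1.20 in shSCR (SD, n = 4 each). FDFT1-201 held 87.8% ± 3.27 and 91.6% ± 3.87 of the counts of FDFT1, with 42 to 63 counts in each shPTBP1 library and 67 to 82 in each shSCR library, so that the lower counts of FDFT1 were present in its main isoform. No other isoform of HMGCS1 or FDFT1 reached 5%. SQLE-201 held 100% of SQLE counts in all shSCR libraries and 81.9%, 100%, 99.3% and 86.1% in shPTBP1 replicates 1 to 4. SQLE-206 took the other 18.1% and 13.9% in replicates 1 and 4. Its annotated first exon has 109 bases against 1190 in SQLE-201, and its coding length is 1437 bases against 1722. Of 55736 transcripts with a count, 20 had the same pattern of at least 25 counts in 2 libraries and 0 in the other 6, a threshold chosen after the values of SQLE-206 were seen.

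The remaining enzymes had too few counts for a firm account of isoforms. IDI1 was divided between IDI1-201 (77.3% ± 16.9 in shPTBP1 and 76.1% ± 17.5 in shSCR) and IDI1-205, a transcript with no annotated coding region. MVD-201 held 91.5% ± 6.81 and 89.3% ± 9.06 of MVD counts, and MVD-204, also without a coding region, most of the others. DHCR7-201 held 71.8% ± 9.59 and 77.6% ± 12.6 of DHCR7 counts, with DHCR7-202 at 12.7% and 10.9% and DHCR7-216 at 13.8% and 2.98% in shPTBP1 and shSCR. DHCR7-216 rested on 9 counts in all. LSS-205 held 66.4% ± 22.8 and 86.7% ± 16.3 of LSS counts, from 38 counts over the 8 libraries, while LSS-201, LSS-202, LSS-206 and LSS-210 had 1 to 5 counts each.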

How the data were processed

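Nanopore cDNA libraries from 8 MOLM-13 cultures (4 shPTBP1, 4 shSCR) were analysed. The authors aligned the reads to hg38 with minimap2, kept those with a mapping quality above 50, and deposited whole-number counts per transcript from StringTie, without normalization. Versions and annotation of the authors' tools are not given in the sources used here. The second deposited table holds CPM, each count divided by its library total per 1000000, without division by length (checked to within 1e-06). It was used for 1 alternative only.

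The 252562 of 254070 transcripts found in GENCODE version 44 were summed to genes, and the 1508 others (at most 0.1151% of counts) were left out. Genes with filterByExpr's default minimum count of 10 were normalized by TMM and tested with edgeR 4.0.16 (quasi-likelihood, group as the only term, BH adjustment over 7597 genes). Confidence intervals are 95% intervals of that fit. Genes with too few counts are given as ratios with an exact binomial interval, and amplified molecules are not independent. Log2 CPM used a prior count of 2. Isoforms were tested with diffSpliceDGE, main isoform shares by exact permutation.

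The named genes are the 8 enzymes, PTBP1, SREBF2 and INSIG1, every called gene of the 4 further lists, isoforms with a mean share of at least 5% in a group, and the 5 genes most like the enzymes by Pearson's r. Values of 2 further listed genes are not reported here, although both stay in the counts and medians of their lists. The enzymes and lists were chosen with earlier results of these data known. Replicates are biological by their labels, and p values measure the spread between these samples. Same-numbered libraries did not vary together (correlations of deviations -0.0328 to 0.00889), so the numbers were not treated as pairs.

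Alternatives were DESeq2 1.42.0, limma 3.58.1 (voom, trend on log2 of CPM plus 1, diffSplice), DESeq2's size factors, no filter, a mean of at least 50 counts, the replicate number as a block, thinning to the smallest library, protein coding transcripts only, other minimum changes of share, isoforms with a mean of at least 10 counts, and leaving out each library. R 4.3.3, Python 3.11.15, numpy, pandas, scipy and matplotlib were used, and tests were tried on simulated counts.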

Additional observations from a re-analysis of the deposited data

Results flagged for a closer look

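Of 42 groups of 4 libraries examined for a value far from the other 3 (the named genes and the 8 main isoform shares in each group), 1 was set apart by Dixon's ratio, where chance gives about 1 in 20. In shPTBP1 replicate 2 the share of FDFT1-201 was 92.6% of FDFT1 counts, while the other shPTBP1 libraries had 85.7% to 86.5%, a gap of 0.881 of the group's range. The shSCR libraries ran from 86.6% to 95%, so that the value lies within their range.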

How the results depend on the processing

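The count of 0 enzymes called lower became 1 with a mean of at least 50 counts (FDFT1), and was 0 under the other alternatives, with each library left out as well. The count of enzymes called higher and of enzyme isoforms called was 0 under every alternative run. Not every alternative covered the same enzymes, as DESeq2 gave no adjusted p for MVD and DHCR7. The count of other listed sterol and isoprenoid genes called lower was 3 under every alternative with all libraries except limma-voom (2), and 0 to 3 with a library left out. Over all genes tested, edgeR called 184 to 358 genes with a library left out, against 242 lower and 179 higher with all libraries. With a mean of at least 50 counts these 3 were not the same genes: INSIG1 was not tested, and MBTPS1 was called (log2 fold change -0.42, adjusted p = 0.0456 by edgeR) beside LIPA and FNTA. MBTPS1 was also called without shPTBP1 replicate 1. The median log2 fold change of the enzymes was between -0.15 and -0.09 with all libraries (the last over the 4 enzymes with a mean of at least 50 counts) and between -0.20 and -0.059 with a library left out. Values near 0 changed sign. MVD was between -0.39 and 0.042, and FDPS between -0.12 and 0.038, with a library left out. With the replicate number as a block, FDFT1 had an adjusted p of 0.0796, INSIG1 of 0.0159, LIPA of 0.0228 and FNTA of 0.0429, and no call changed among the enzymes and listed genes. The causes of these changes were not tested. Depth limits IDI1, LSS, MVD and DHCR7, with at most 24 counts per library.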
